A study of Mus musculus with 24 samples.

Results

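The promoters of the genes that encode the proteins of the cytosolic ribosome were followed in H3K9ac peak lists of 4T1 spheroids, 3D cultures of a mouse mammary carcinoma line. H3K9ac, acetylation of lysine 9 on histone H3, marks active promoters, and it was mapped by ChIPmentation, in which the Tn5 transposase tags immunoprecipitated chromatin. Members were the protein-coding genes of GENCODE vM21 whose symbol starts with Rpl or Rps followed by a digit, with Rplp0, Rplp1, Rplp2 and Rpsa, and without the kinase genes Rps6k and Rps19bp1. The rule found 91 members among 21755 protein-coding genes on chromosomes 1 to 19 and X. A gene was called in a library when a listed peak overlapped the 1 kb on either side of one of its annotated transcription start sites (TSS).

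The study asked whether the loss of CPT1a, which loads long-chain fatty acids onto carnitine for entry into mitochondria, or of the acetyltransferase KAT2a altered H3K9ac, and whether acetate did so in cells without CPT1a. The 12 lists came from 4 groups of 3 libraries: scramble (a guide against EGFP), CPT1a knockout and KAT2a knockout spheroids in medium with 75 µM palmitate, and CPT1a knockout spheroids in medium with 5 mM acetate, whose labels do not state palmitate, although a legend of the study describes its acetate experiment as done with palmitate. All spheroids were collected on day 5. The lines carried a doxycycline-inducible Cas9 with lentiviral guides and were selected with puromycin, and no single-cell cloning is stated. The study speaks in general of biological replicates, but the labels do not say whether the libraries of a group came from separate cultures. If they did not, p-values measure only the spread between these libraries, which may be technical. Promoters of the targeted genes Cpt1a and Kat2a were called in 12 of 12 libraries, which checks nothing about a guide-made mutation. Of the epithelial markers, Krt7, Krt8, Krt18, Epcam and Cdh1 were called in all 12 libraries, Krt14 in 3, and Krt5 and Trp63 in 0. Of the markers of other cells, Pdgfra was called in 12 libraries and Col1a1 in 11, while Ptprc, Cd3e, Pecam1, Cdh5, Col1a2, Adipoq and Plin1 were called in 0.

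The lists held 16212 to 34370 peaks. The depth behind a list, read from the lowest background level that recurs in it and called the calling depth, was 1.87 to 2.52 in scramble and 0.554 to 1.91 in the other 9 libraries, so the scramble lists were on average the deepest. Neither read totals nor the Drosophila chromatin spiked in as a reference were used, so genes were compared by their place within a library, and no statement on global H3K9ac levels was possible.

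A ribosome is built from a small subunit, which reads the mRNA, and a large subunit, which joins amino acids. Each subunit holds ribosomal RNA and many different proteins, most of them needed in equal numbers, so their genes are transcribed strongly in nearly every growing cell. Many of their mRNAs begin with a stretch of pyrimidines, the 5′ terminal oligopyrimidine motif, through which the mTOR pathway controls their translation.

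The promoter sequences of 4 members called lower in each group against scramble by the pileup measure described later (Rps4x, Rpl37a, Rps7 and Rps9), of the 2 called higher (Rpl6 and Rpl36), and of Rpl5, one of the highest-ranked members, are given here from the GRCm38 (mm10) genome, each from 60 bases before to 20 bases after the principal annotated TSS. Capitals mark the longest run of C and T on the gene's strand that overlapped the TSS region (-10 to +15) where that run reached 8 bases. Rps4x, Rps7, Rps9 and Rpl6 have no such run at that TSS.
Rps4x (chrX:102189375-102189454, minus strand): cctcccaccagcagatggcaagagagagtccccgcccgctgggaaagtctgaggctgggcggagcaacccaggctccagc
Rpl37a (chr1:72711230-72711309, plus strand): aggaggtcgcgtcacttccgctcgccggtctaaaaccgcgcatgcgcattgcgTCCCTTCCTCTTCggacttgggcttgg
Rps7 (chr12:28635934-28636013, minus strand): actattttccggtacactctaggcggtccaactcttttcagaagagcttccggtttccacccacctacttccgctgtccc
Rps9 (chr7:3703933-3704012, plus strand): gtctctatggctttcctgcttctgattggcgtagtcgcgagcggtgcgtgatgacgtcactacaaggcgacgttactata
Rpl6 (chr5:121204421-121204500, plus strand): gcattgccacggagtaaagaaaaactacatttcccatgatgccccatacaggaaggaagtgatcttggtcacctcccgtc
Rpl36 (chr17:56613356-56613435, plus strand): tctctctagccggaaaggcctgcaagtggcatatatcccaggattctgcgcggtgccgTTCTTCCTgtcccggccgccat
Rpl5 (chr5:107900442-107900521, plus strand): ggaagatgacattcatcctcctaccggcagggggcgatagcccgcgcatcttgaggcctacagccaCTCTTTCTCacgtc

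Over the 81 members called in every library, 37.0% of the promoters held such a run of 8 or more pyrimidines, against 14.4% of the 10777 genes called in every library and 12.8% of the 78 mitochondrial ribosomal protein genes. Runs of 10 or more were found at 22.2% of the members and 7.40% of all these genes. From 250 bases before to 50 after the TSS, searched on both strands, CCGGAAG stood in 30.9% of the members, 19.9% of all genes and 37.2% of the mitochondrial ribosomal protein genes. In the same order, GGGCGG stood in 53.1%, 66.5% and 48.7%, CCAAT in 32.1%, 38.9% and 34.6%, and TATAAA in 12.3%, 6.57% and 8.97%. Within 500 bp of the TSS, the median GC content was 57.1% for the members, 59.5% for all genes and 55.8% for the mitochondrial ribosomal protein genes, and the median ratio of observed to expected CpG was 0.817, 0.752 and 0.728. These values describe letters only.

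Nearly every gene of the working ribosome carried H3K9ac in every group. A promoter peak was found in all 12 libraries for 81 of 91 members (89.0%), against 49.5% of all 21755 genes and 100% of the 78 mitochondrial ribosomal protein genes. The 81 comprised 46 large subunit genes, 31 small subunit genes and 4 paralogs. The number of members called in a library was 82 to 84, and its range within scramble, 83 to 84, lay inside that of the other groups.

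The other 10 members were copies or tissue-restricted paralogs. No library called Rpl3l, which is expressed in heart and skeletal muscle, Rpl10l, a testis paralog of the X-linked Rpl10, or Rpl39l, a testis paralog of Rpl39. The annotated copies Rpl9-ps1, Rpl36a-ps1, Rpl36-ps4 and Rpl10-ps3 were called in 0 of 12 libraries as well. Rpl9-ps6 was called in 11 libraries, Rps27rt in 10 and Rps12-ps3 in 6, at peaks 207 to 413 bp wide with a fold enrichment of 3.70 to 9.63, and since such copies share sequence with their parent genes these calls are uncertain.

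Called paralogs were set beside their parents. Rpl22l1 had a mean percentile of fold enrichment over the 12 libraries of 72.1 and its parent Rpl22, an RNA-binding protein of the large subunit, 87.2. Rps27l, a target of p53, stood at 67.2 and Rps27 at 70.4, and the autosomal Rpl36al stood at 67.8 and the X-linked Rpl36a at 51.3. Rpl7l1 had the lowest mean of all 81 members at 47.0, with Rpl7 at 86.5. The parents had the higher mean in each of these pairs except that of Rpl36a, and the differences were not tested.

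MACS2 divides the fragments piled up at a summit by the local background to give the fold enrichment, and each gene was placed by its strongest promoter peak as a percentile among the 10777 genes called in all 12 libraries. The members sat far up this order. Their median percentile was 91.3, 91.5 and 94.2 in the scramble libraries, 76.1, 84.7 and 84.8 in CPT1a knockout, 86.8, 91.2 and 86.5 with acetate, and 87.2, 89.9 and 88.2 in KAT2a knockout. The 3 scramble libraries were the 3 highest, and the CPT1a knockout libraries the 3 lowest. The medians of the mitochondrial ribosomal protein genes were 44.5 to 54.4 over the 12 libraries, close to the median gene. A lower percentile is not in itself a lower fold enrichment. The members' median fold enrichment was 29.7 to 34.9 in scramble and 25.8 to 42.6 in CPT1a knockout. It was 35.2 to 37.5 with acetate and 39.8 to 45.3 in KAT2a knockout. Over all genes the median fold was 18.7 to 19.4 in scramble and 18.5 to 31.4 elsewhere.

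**Figure D1:**
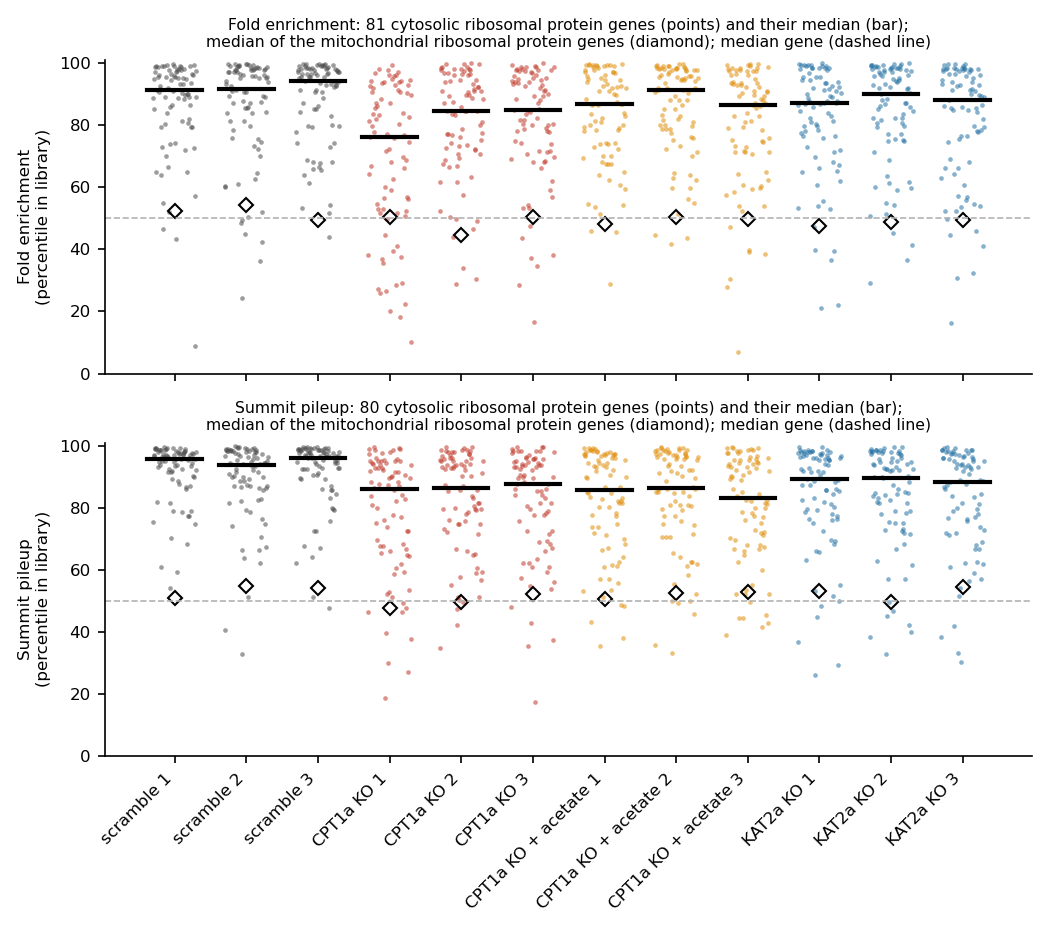
Percentile of each member within each of the 12 libraries by fold enrichment (top, 81 genes) and by summit pileup (bottom, 80 genes), with 100 as the strongest promoter, points for genes, bars for the members' medians and diamonds for the medians of the mitochondrial ribosomal protein genes. The bars of the 3 scramble libraries lie at 91.3 to 94.2 by fold enrichment and at 93.8 to 95.9 by pileup, above the bars of the other 9 libraries in both panels.

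The 5 highest members by mean percentile were Rpl9 (99.3), Rpl13a (98.3), Rpl5 (98.2), Rpl32 (98.0) and Rps15a (97.1). Rpl9, of the large subunit, stayed between 97.6 and 99.9 in every library, although its window also holds the TSS of Lias; 19 of the 81 members share their window with another coding gene in this way. The 5 lowest were Rpl10 (60.4), Rps21 (57.6), Rpl36 (55.5), Rpl36a (51.3) and Rpl7l1 (47.0). The order of the middle of the list was not resolved, since the median within-group SD of a member was 13.1 percentile points.

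The 4 X-linked members, Rps4x, Rpl39, Rpl10 and Rpl36a, were all among the 10 lowest of the 81. By pileup their median percentile was 52.2 to 77.1 in scramble and 28.4 to 46.3 in the other libraries, so the groups did not overlap. The 291 X-linked genes in the order had medians of 17.9 to 20.6 in scramble and 11.8 to 18.2 elsewhere.

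By fold enrichment, few members differed between groups. In CPT1a knockout against scramble, 67 of 81 members had a lower mean, with a median difference of -8.68 percentile points against 0.22 over all genes. The members' median was -11.4 to -3.47 when each library was left out in turn. The limma test, adjusted over all 10777 genes, called 2 members lower and 0 higher at an adjusted p under 0.05, and 10 members, all lower, at an unadjusted p under 0.05. Over all genes, 5.24% were called lower and 4.77% higher. Rpl37a, of the large subunit, stood at 96.4, 96.2 and 90.7 in scramble and at 71.6, 70.6 and 47.5 in CPT1a knockout. The knockout values all lay below the scramble values, a difference of -31.2 (SE 8.21, adjusted p = 0.0277). Rpl39, a short protein of the exit tunnel, stood at 91.1, 81.2 and 85.1 in scramble and at 49.7, 69.4 and 37.4 in CPT1a knockout, again without overlap (-33.6, SE 9.84, adjusted p = 0.0419). The call was lost under 7 of 21 alternatives at Rpl37a and under 14 of 21 at Rpl39, and no call was left with the GC trend removed or with any 1 scramble library left out.

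In KAT2a knockout against scramble, 55 of 81 members had a lower mean, and the median difference was -3.97 points against 0.10 over all genes. One large subunit gene was called, Rpl4, whose percentiles were 99.7, 85.4 and 91.4 in scramble and 53.8, 68.7 and 76.4 in KAT2a knockout (-25.9, SE 6.93, adjusted p = 0.0470). The calls were 1 lower and 0 higher, with 5 members, all lower, at an unadjusted p under 0.05. Over all genes 2.71% were called lower and 1.70% higher. The call at Rpl4, whose window also holds the TSS of Zwilch, was lost under 15 of 21 alternatives.

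With acetate, members moved up on balance, and none passed the test. In CPT1a knockout with acetate against CPT1a knockout, 58 of 81 had a higher mean, with a median difference of 4.02 points against -0.48 over all genes. The members' median was 0.745 to 5.41 when each library was left out in turn. The limma test called 0 members, with 6 members higher at an unadjusted p under 0.05, and it called 0.0278% of all genes higher and 0.0186% lower. Rpl31, at the exit of the tunnel, had the largest rise without overlap, from 36.8, 44.0 and 92.7 to 99.3, 99.0 and 98.5 (41.1, SE 10.9, adjusted p = 0.261). Rps18 was next (15.9, SE 7.41, adjusted p = 0.540), and Rps20 and Rpl4 were the 2 members whose groups did not overlap in the other direction (-6.03 and -5.05). Against scramble, the acetate group had 0 called members, with 4 lower at an unadjusted p under 0.05, a median difference of -1.53 points (0.01 with the trend of rank with GC content removed) and background shares of 3.90% lower and 1.66% higher. There Rpl28 (-37.2, SE 14.8, adjusted p = 0.153) and Rps4x (-34.7, SE 12.3, adjusted p = 0.113) were lower without overlap, and Rpl6 was the 1 member higher without overlap (7.24, adjusted p = 0.625).

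The fold enrichment has 2 parts, and both varied between replicates. At Rps9, a small subunit gene, the fold enrichment was 34.3, 34.5 and 38.6 in the scramble libraries and 14.7, 39.5 and 22.3 in CPT1a knockout. The pileups recovered from the deposited fold and p were 87.3, 100 and 35.6 in CPT1a knockout, and the backgrounds 5.00, 1.56 and 0.64. The lowest fold, in CPT1a knockout replicate 1, thus went with a background of 5.00, while the backgrounds of the other 11 libraries were 0.64 to 3.00. These values are on the scale of each list and are not fragment counts in every library. Of the recovered pileups, 100% were whole numbers in CPT1a knockout replicate 2, but 0.0928% and 1.93% in replicates 1 and 3. CPT1a knockout replicate 3 had the lowest background of the 12 libraries together with the lowest pileup. The median background at the members' summits was 0.660 to 3.02.

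**Figure D2:**
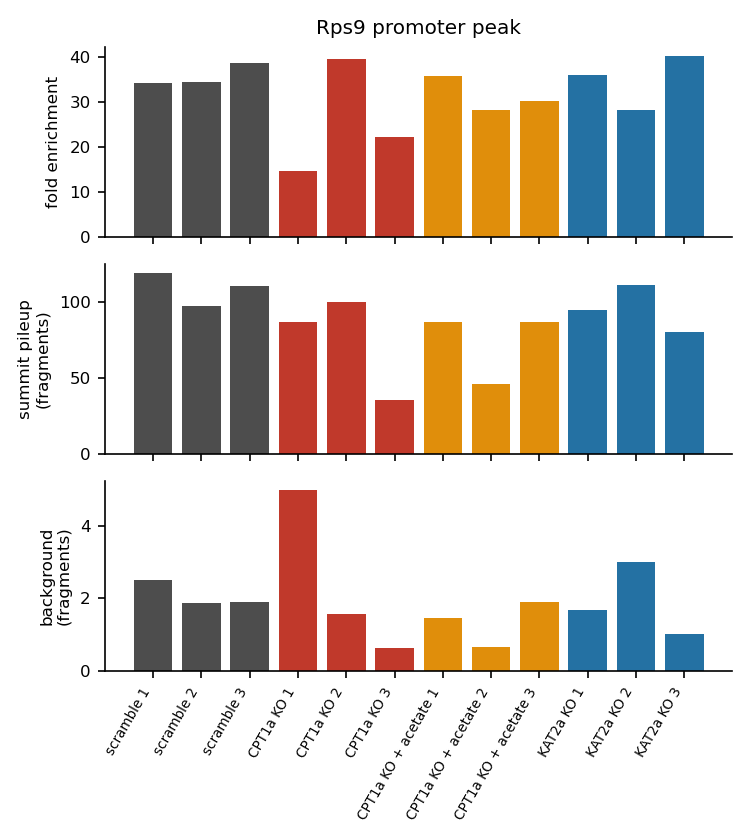
Fold enrichment (top), recovered summit pileup (middle) and recovered local background (bottom) of the strongest promoter peak of Rps9 in each of the 12 libraries, with 1 bar for a library and colours for groups. The last 2 are labelled in fragments but are on the scale of each list. The fold is lowest, at 14.7, in CPT1a knockout replicate 1, where the background is highest, at 5.00.

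The pileup alone, a measure added after these values were seen, was ranked in the same way over 10750 genes, with 80 of the 81 members (Rps3a1 had a p too small to invert in KAT2a knockout replicate 2). The median within-group SD of a member fell from 13.1 to 4.69 percentile points. The members' medians were 95.6, 93.8 and 95.9 in scramble, 86.0, 86.4 and 87.6 in CPT1a knockout, 85.8, 86.4 and 83.2 with acetate and 89.1, 89.7 and 88.4 in KAT2a knockout. The 3 scramble libraries were again the highest and did not overlap the others.

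On this scale a large share of the members lost rank relative to other genes in CPT1a knockout. There 40 of 80 members were called lower and 2 higher, while over all genes 22.5% were called lower and 22.3% higher. The median difference was -5.88 points for the members, 0.0093 over all genes and 1.37 over the 4237 genes whose mean percentile was 60 or more. Among those high-ranking genes 18.8% were called lower and 27.8% higher, and of the 72 members among them 36 were called lower and 2 higher. With the trend of rank with GC content removed, the calls were 25 lower and 7 higher, and with calling depth as a covariate 34 lower and 2 higher. The shares of all genes given above are those of the main fit and not of these 2 fits.

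**Figure D3:**
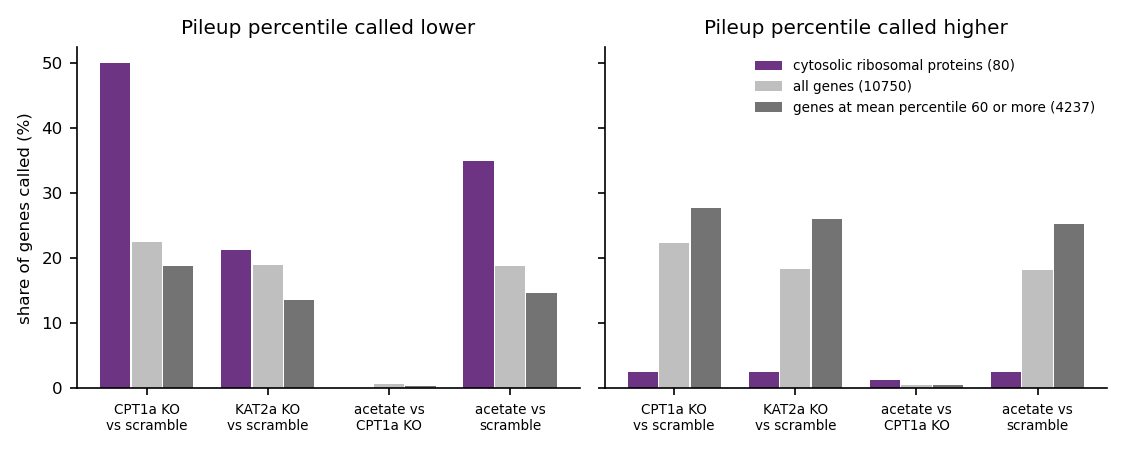
Share of genes called lower (left) and higher (right) in pileup percentile at a limma adjusted p under 0.05 in each of the 4 comparisons, for the 80 members, all 10750 genes and the 4237 genes with a mean percentile of 60 or more, on an axis from 0. In CPT1a knockout against scramble, 40 of 80 members and 22.5% of all genes were called lower.

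The largest losses of rank were at Rpl37a, Rps9, Rps4x, Rpl28 and Rps12. Rpl37a stood at 91.9, 94.2 and 94.7 in scramble and at 52.2, 51.3 and 54.7 in CPT1a knockout (-40.9, SE 5.30, adjusted p = 5.99e-05). Rps9, whose protein helps to keep decoding accurate, stood at 92.2, 86.9 and 92.7 in scramble and at 37.7, 59.4 and 56.0 in the knockout (-39.5, SE 6.78, adjusted p = 0.000456). Rps4x, the X-linked form of a small subunit protein, stood at 90.1, 74.8 and 84.6 in scramble and at 27.0, 51.3 and 53.9 in the knockout (-39.1, SE 8.39, adjusted p = 0.00211). These promoters went from the upper part of the order to near its middle, without overlap between the groups. Rpl28 fell by 32.6 points (SE 4.17, adjusted p = 5.44e-05) and Rps12 by 31.1 (SE 7.59, adjusted p = 0.00472). The 2 members that rose belong to the large subunit. Rpl36 stood at 81.7, 82.1 and 90.6 in scramble and at 95.5, 93.6 and 94.8 in the knockout (9.83, SE 2.52, adjusted p = 0.0064). Rpl6 stood at 93.5, 87.3 and 91.3 in scramble and at 97.9, 98.5 and 95.8 in the knockout (6.72, SE 1.71, adjusted p = 0.00602). All 3 knockout values of each lay above all 3 scramble values.

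KAT2a knockout, compared with the same scramble libraries, showed fewer calls. Here 17 of 80 members were called lower and 2 higher, against 18.9% lower and 18.4% higher over all genes, and against 13.6% and 26.1% over the high-ranking genes, of which the 72 members held 12 lower and 2 higher. The share of members called lower was near that of all genes, and the median difference was -3.68 points against 0.087. Rps4x stood at 29.3, 42.3 and 57.2 in KAT2a knockout (-40.2, SE 8.39, adjusted p = 0.00259), Rpl37a at 66.1, 56.9 and 54.1 (-34.6, SE 5.30, adjusted p = 0.000323) and Rpl39 at 44.8, 49.6 and 30.3 (-30.2, SE 6.98, adjusted p = 0.00475). Rps7, whose protein binds MDM2 as well as serving in the small subunit, stood at 74.7, 67.4 and 92.7 in scramble and at 49.9, 40.1 and 61.9 in KAT2a knockout (-27.6, SE 7.94, adjusted p = 0.0158). Rps9 was also lower (-27.3, SE 6.78, adjusted p = 0.00699). None of these 5 overlapped its scramble values. Rpl6 (6.47, adjusted p = 0.0101) and Rpl36 (6.88, adjusted p = 0.0458) were called higher, and at Rpl36 the groups overlapped and the call was lost under 15 of 17 alternatives. The count of 19 calls was 11 without scramble replicate 1, 12 without KAT2a knockout replicate 3 and 31 (30 lower, 1 higher) with normal scores in place of percentiles, where 20.5% of all genes were lower and 19.5% higher.

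With acetate, the pileup rank of 1 member passed the test. In CPT1a knockout with acetate against CPT1a knockout, the median difference was 0.60 points against 0.037 over all genes, and 1 of 80 members was called higher and 0 lower by limma, with 9 higher and 3 lower at an unadjusted p under 0.05. Over all genes 0.447% were called higher and 0.642% lower, and over the high-ranking genes 0.519% and 0.307%. The count of 1 became 0 in the fits with normal scores, with the GC trend removed or with 2 groups, and 0 without any 1 of the acetate libraries.

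The acetate group still stood below scramble. Of 80 members, 28 were called lower and 2 higher, against 18.8% lower and 18.2% higher over all genes, with a median difference of -6.92 points against 0.17, and the high-ranking genes had 14.6% lower and 25.3% higher. Rps4x stood at 38.1, 45.7 and 45.5 (-40.0, SE 8.39, adjusted p = 0.00245) and Rpl37a at 66.5, 65.6 and 52.1 (-32.2, SE 5.30, adjusted p = 0.000509). Rps7 (-30.4, SE 7.94, adjusted p = 0.00905), Rps9 (-29.8, SE 6.78, adjusted p = 0.00404) and Rpl24 (-26.7, SE 6.17, adjusted p = 0.00446) followed, all without overlap. Rpl6 was higher by 6.78 (adjusted p = 0.00727) and Rpl36 by 7.41 (adjusted p = 0.0335, with overlap, and lost under 8 of 17 alternatives). The 30 calls fell to 19 without scramble replicate 1, to 19 without scramble replicate 3 and to 19 with the GC trend removed.

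**Figure D4:**
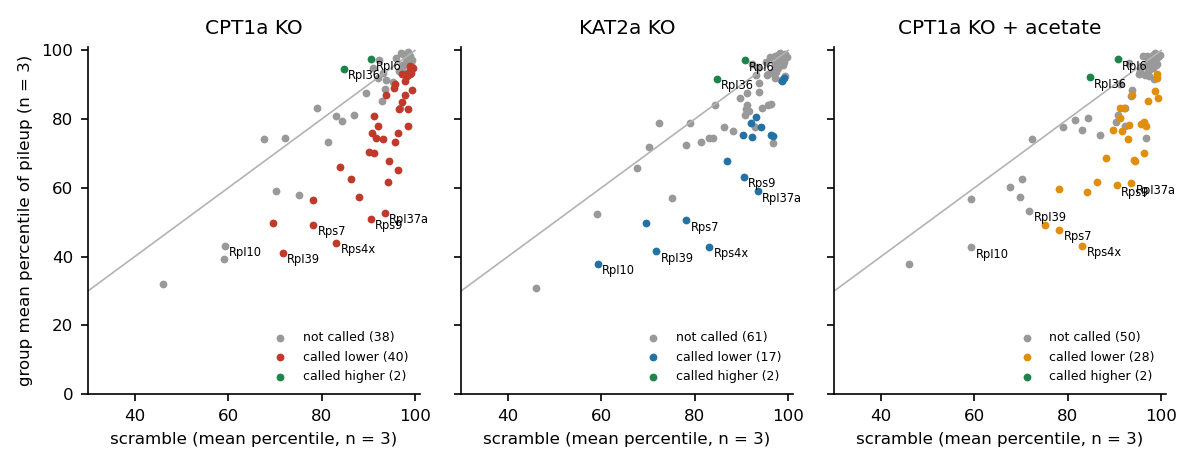
Mean pileup percentile of each of the 80 members in scramble (horizontal axis, n = 3) against those of the other 3 groups (vertical axes, n = 3 each), coloured by call, with the line of equality. Of the points, 40, 17 and 28 are called lower, and the members farthest under the line include Rps4x, Rpl37a, Rps9 and Rps7, while Rpl6 and Rpl36 are called higher in each panel (at Rpl36 the call was lost under 15 of 17 alternatives in KAT2a knockout and 8 of 17 with acetate).

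The calls were spread over both subunits. Among 49 large subunit members, 22 were called lower in CPT1a knockout, 9 in KAT2a knockout and 15 with acetate against scramble, and 2 were called higher in each. Among 31 small subunit members, 18, 8 and 13 were called lower and 0 higher. Over all genes 22.5%, 18.9% and 18.8% were called lower, and 22.3%, 18.4% and 18.2% higher. In KAT2a knockout the share of large subunit members called lower was near that of all genes. The median difference was -5.04, -3.40 and -5.27 points in the large subunit and -10.9, -5.40 and -9.03 in the small subunit, a contrast that was not tested.

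The lateral stalk, which recruits translation factors, is made of Rplp0, Rplp1 and Rplp2 on a base that includes Rpl12. Rplp2 stood at 97.4, 94.8 and 97.9 in scramble, 85.6, 77.9 and 85.5 in CPT1a knockout, 80.1, 75.6 and 78.4 with acetate and 82.0, 66.7 and 76.4 in KAT2a knockout. It was called lower in all 3 groups against scramble (-13.7, -18.7 and -21.7, adjusted p = 0.00907, 0.00183 and 0.000736 in that order), and scramble overlapped no other group. Rplp1 was called lower in CPT1a knockout (-18.1, SE 5.15, adjusted p = 0.0116) and with acetate (-25.2, SE 5.15, adjusted p = 0.00208), and its value in KAT2a knockout was -9.62 (adjusted p = 0.156). Rplp0, which anchors the stalk, passed the test with acetate alone (-12.9, SE 4.83, adjusted p = 0.0498), as did Rpl12 (-7.19, SE 2.34, adjusted p = 0.0271). The pileup of Rplp0 was read at unlike sites, 821, 6293 and 6363 bp past the TSS in scramble and 422, 443 and 304 bp with acetate. Of the 4 stalk genes, 4 were thus called lower in the acetate group, 2 in CPT1a knockout and 1 in KAT2a knockout, where 18.8%, 22.5% and 18.9% of all genes were. The 2 not called in CPT1a knockout, Rplp0 and Rpl12, had adjusted p = 0.768 and 0.312 by limma.

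Rpl5 and Rpl11, which with 5S RNA form the particle that binds MDM2, gave unlike values. Rpl5 stood at 97.0, 98.1 and 98.7 in scramble and at 89.5, 94.0 and 89.5 in CPT1a knockout (-6.88, SE 1.72, adjusted p = 0.00556), and it was at 97.3, 95.7 and 93.2 with acetate. Rpl11 stood between 96.7 and 99.5 in all 12 libraries and was called in no comparison, with a difference of -0.12 (SE 1.24, adjusted p = 0.947) in CPT1a knockout. No test compared the 2 genes. Of the 9 members of a list of Diamond-Blackfan anaemia genes, 6 were called lower in CPT1a knockout, 2 in KAT2a knockout and 3 with acetate, beside 22.5%, 18.9% and 18.8% of all genes. Rps19, the gene most often mutated in that anaemia, was not called, with percentiles of 95.03 to 99.7 in all libraries. Of the 8 proteins around the exit of the peptide tunnel, 2 were called lower in each of the 3 groups against scramble, beside the same shares of all genes. They were Rpl31 and Rpl39 in CPT1a knockout and Rpl22 and Rpl23a with acetate, and none was called lower in all 3 groups.

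Some small subunit proteins are also known for roles outside the ribosome. Rps3, which also acts in DNA repair, stood at 97.7, 94.5 and 96.7 in scramble and at 64.9, 81.4 and 81.6 in CPT1a knockout (-20.3, SE 4.53, adjusted p = 0.00274). It was lower with acetate (-17.1, adjusted p = 0.00979), and in KAT2a knockout its difference of -11.8 had an adjusted p of 0.0544. Rps6, the substrate of S6 kinase, was called lower in CPT1a knockout (-19.9, adjusted p = 0.0092) and KAT2a knockout (-15.0, adjusted p = 0.0446). Rps27a, which is made as a fusion with ubiquitin, was called lower in CPT1a knockout (-12.1, adjusted p = 0.0133) and with acetate (-11.9, adjusted p = 0.0184). Rpsa, also known as a laminin receptor, was not called (-1.88, -2.64 and -4.77, adjusted p = 0.446, 0.299 and 0.0657).

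The other genes of ribosome production and translation, taken from lists, gave a range, to be read beside the 22.5% of all genes called lower and 22.3% called higher in CPT1a knockout. Of 32 assembly factors, which process and fold ribosomal RNA, 13 were called lower and 1 higher in CPT1a knockout, with a median difference of -11.1 points. Of 12 genes of RNA polymerase I and its factors, 5 were called lower and 0 higher in each of the 3 groups (18.9% of all genes lower in KAT2a knockout and 18.8% with acetate). Of 31 translation factors, 10 were called lower and 9 higher in CPT1a knockout, with a median difference of -0.997, and of 78 mitochondrial ribosomal protein genes 23 were called lower and 12 higher, with a median of -2.80. The translation factors also ranked high by pileup, at 83.8 to 87.7 in scramble and 82.9 to 89.6 in the other libraries, and these ranges overlapped, unlike those of the members.

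The promoter peaks of the members were wide. The median width of the strongest peak was 2947 to 4204 bp in scramble and 2075 to 3285 bp in the other libraries, against 2120 to 2886 and 1444 to 2429 bp over all genes. The widest members by mean were Rps18 (6414 bp), Rpl7a (4976 bp) and Rpl7 (4912 bp), and the narrowest were Rps23 (1641 bp), Rps29 (1748 bp) and Rpl36a (1874 bp). Width varied with how a domain was split: Rpl7a had one peak of 10386 bp in scramble replicate 1 and a strongest peak of 2904 bp in replicate 2. The share of members with 2 or more peaks in the window was 37.0% to 51.9% in scramble and 14.8% to 37.0% elsewhere.

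Some peaks of the members were called narrower in each of the 3 groups against scramble. In CPT1a knockout against scramble, 20 of 81 members were called narrower and 0 wider by limma, where 25.1% of all genes were narrower and 1.39% wider, and the median log2 width ratio was -0.45 for members and -0.38 for all genes. The 20 calls were 9 without scramble replicate 1, 11 without scramble replicate 3 and 9 without CPT1a knockout replicate 3. KAT2a knockout had 3 narrower and 0 wider members (2.91% and 0.974% of all genes; medians -0.32 and -0.16). The acetate group had 3 narrower and 0 wider against scramble (6.25% and 0.779%; medians -0.33 and -0.26). With each library left out in turn, the calls were 1 to 7 in KAT2a knockout and 0 to 9 with acetate. Against CPT1a knockout the acetate group had 0 in either direction, with 3 wider at an unadjusted p under 0.05 (0.0% of all genes in either direction; medians 0.13 and 0.13). The counts against scramble depended on how width was measured: by the bases covered within 2 kb of the TSS, 63, 18 and 25 members were narrower in CPT1a knockout, KAT2a knockout and with acetate, and 59.5%, 18.8% and 29.4% of all genes. With peaks within 500 bp merged, 68, 41 and 43 members and 72.3%, 43.5% and 48.8% of all genes were narrower.

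The largest width difference in CPT1a knockout was at Rplp0. Its strongest peak spanned 8191, 8189 and 7462 bp in scramble, 2799, 2833 and 2031 bp in CPT1a knockout, 3942, 3368 and 3631 bp with acetate and 3559, 3350 and 2999 bp in KAT2a knockout. The summit of this peak lay 821, 6293 and 6363 bp past the TSS in scramble and 278 to 443 bp past it in the other 9 libraries. In scramble replicates 2 and 3 the strongest point was thus more than 1 kb from the principal TSS. The scramble peaks were wider than all others, with log2 ratios of -1.65 (SE 0.16, adjusted p = 0.000721) in CPT1a knockout, -1.27 (adjusted p = 0.00651) in KAT2a knockout and -1.13 (adjusted p = 0.0117) with acetate. The last 2 calls were lost when the bases covered within 2 kb or merged peaks were measured instead, and that with acetate was lost under 4 of 16 alternatives in all. Rpl23a, at the tunnel exit, spanned 8881, 3617 and 8620 bp in scramble and 1616 to 2735 bp in the other 9 libraries (-1.57, adjusted p = 0.00731 in CPT1a knockout; -1.42, adjusted p = 0.0369 in KAT2a knockout; -1.32, adjusted p = 0.0347 with acetate). Rpl8 (-0.90, adjusted p = 0.0123), Rpl35a (-0.85, adjusted p = 0.0256) and Rpl36al (-0.85, adjusted p = 0.0144) were narrower in CPT1a knockout, Rpl4 in KAT2a knockout (-0.60, adjusted p = 0.0490) and Rps27a with acetate against scramble (-0.62, adjusted p = 0.0397). Of these calls, that of Rpl4 was lost under 11 of 16 alternatives, those of Rps27a and of Rpl23a in KAT2a knockout and with acetate under 10 each, and that of Rpl35a under 5, while those of Rpl8, Rpl36al and, in CPT1a knockout, Rpl23a were lost under 0 of 16.

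The summits of the members lay farther into the gene than those of most genes, and they lay closer to the TSS outside scramble. The median distance of the summit from the principal TSS was 676 to 712 bp downstream in scramble, 467 to 484 bp in CPT1a knockout, 542 to 553 bp with acetate and 492 to 536 bp in KAT2a knockout, so the ranges of the 4 groups did not overlap. All genes had 536 to 581 bp in scramble and 310 to 370 bp elsewhere, and the mitochondrial ribosomal protein genes 488 to 525 and 287 to 341 bp. By limma, 44 of 81 members had a summit nearer to or farther upstream of the TSS in CPT1a knockout and 1 the opposite (47.4% and 8.69% of all genes). In KAT2a knockout these counts were 34 and 1 (34.3% and 6.40%), and with acetate against scramble 31 and 0 (30.5% and 5.98%). The members' shares were near those of all genes. With acetate against CPT1a knockout, 0 members were called in either direction, with 10 farther downstream and 1 upstream at an unadjusted p under 0.05 (0.612% and 0.130% of all genes), and the median shift was 57.0 bp downstream against 38.3 bp.

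The peaks also ended farther downstream. The median end of the members' strongest peak lay 2616 to 3086 bp past the TSS in scramble and 1719 to 2390 bp elsewhere, against 1748 to 2063 and 1050 to 1548 bp over all genes. In every library the members' median end lay beyond that of all genes.

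**Figure D5:**
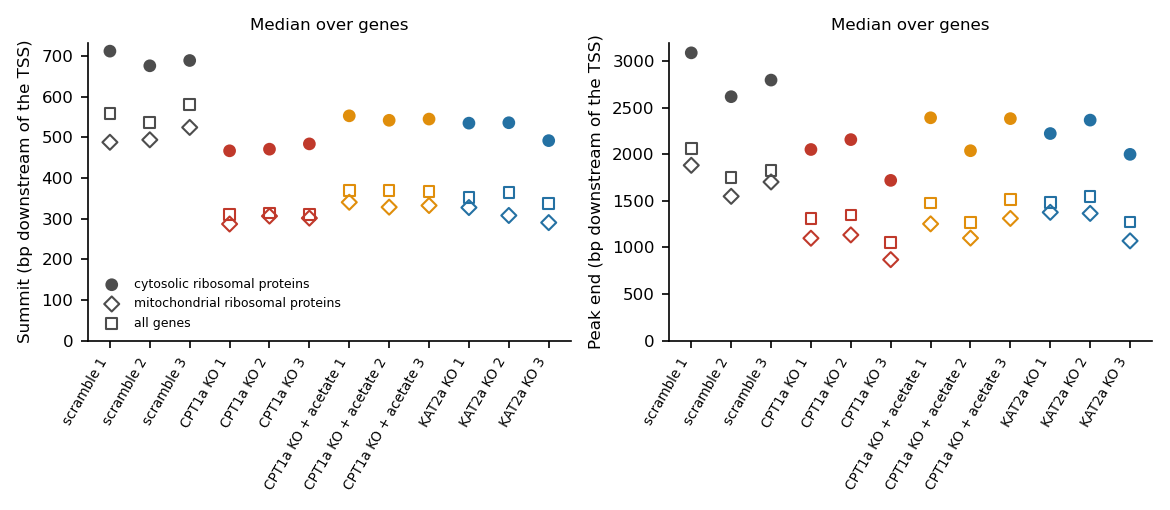
Median distance from the principal TSS of the summit (left) and of the downstream end (right) of the strongest promoter peak, in bp, in each of the 12 libraries, for the 81 members (filled circles), 78 mitochondrial ribosomal protein genes (diamonds) and all 10777 genes (squares), coloured by group. The members' summits lie at 676 to 712 bp in scramble and at 467 to 553 bp elsewhere, above the other gene sets in each library.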

How the data were processed

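H3K9ac libraries of 12 samples were analysed (4 groups, 3 replicates each), and the 12 input libraries were not analysed here. The study's methods name BWA and Picard with mm10, the submitters' processing notes name FastQC, Bowtie2, SAMtools, deepTools and MACS2 with mm10 and dm6, and which aligner made the lists is not settled. The deposited lists have the MACS2 narrowPeak layout with 1 list for each library. The authors' fold enrichment is a ratio of pileup to background, the deposited columns of -log10 p and -log10 q give the caller's evidence for a peak, and the deposited score is 10 times the -log10 q. The smallest deposited -log10 q was 2.00. The labels and the methods give different catalogue numbers for the antibody.

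Genes were those of GENCODE vM21 (GRCm38), and the principal TSS was chosen by coding status, APPRIS tag and support level. Pileup and background were recovered by solving the MACS2 formulas for fold and p, which was tested on simulated peaks, and depth is known only on this scale. Percentiles, log2 widths and summit distances of the 10777 genes called in all 12 libraries (10750 for pileup) were fitted with limma 3.58.1 (R 4.3.3, empirical Bayes with trend, all 4 groups), with Benjamini-Hochberg adjustment over all genes and calls at 0.05. The fit was tested on simulated data. Each of the 3 other groups was compared with scramble, so these comparisons share their scramble libraries, and acetate was compared with CPT1a knockout. Tables were made with Python 3.11.15. Pileup and summit position were added after seeing the data.

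The alternatives were other ranks, widths, windows and TSS, depth, GC, replicate number and left-out libraries. The members, lists and tests were chosen with earlier results of these data known. Members named are those not called everywhere, the 5 highest and 5 lowest by rank, the 3 widest and 3 narrowest, up to 5 called in each direction in each comparison by rank, width and pileup (where none was called by rank, up to 2 each way whose groups did not overlap), Rplp0, Rplp1, Rplp2, Rpl5, Rpl11, Rps3, Rps6, Rps19, Rpsa, Rps27a and the paralog pairs. Rpl12 was named as a member of a list. Some genes that these rules name are not reported here.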

Additional observations from a re-analysis of the deposited data

How the results depend on the processing

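All 81 members kept a promoter peak in every library with a 500 bp window, a -log10 q of at least 5, an overlap of at least 200 bp or equal calling depth. Of 36 calls on named members, 21 were kept under every alternative and 15 were lost under at least 1, and none reversed. Comparisons are given in the order CPT1a knockout, KAT2a knockout, acetate (each against scramble), then acetate against CPT1a knockout. The cause of the changes below was not tested.

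For the fold percentile, the calls (2, 1, 0 and 0) became 21, 6 and 8 against scramble when ranked by -log10 p (acetate median -4.99), and 42, 19, 30 and 1 by pileup (acetate median -6.92). The rank and pileup counts of this paragraph stand without the shares of all genes under the same alternatives. Normal scores gave 5 in CPT1a knockout and 1 with acetate, removal of the GC trend 0 in both knockouts, and a fit of 2 groups 0, 0 and 1. The depth covariate gave 0 in KAT2a knockout. For pileup, normal scores gave 31 calls in KAT2a knockout, and the GC trend removed gave 19 with acetate and medians of -4.83 in CPT1a knockout and -4.91 with acetate. The depth covariate moved the KAT2a knockout median to -4.66, and the 1 call of acetate against CPT1a knockout became 0 with normal scores, GC trend removed or 2 groups. For width, bases covered within 2 kb gave 63, 18 and 25 calls and merged peaks 68, 41 and 43, against 20, 3 and 3 (of all genes 59.5%, 18.8% and 29.4%, then 72.3%, 43.5% and 48.8%, against 25.1%, 2.91% and 6.25%). The depth covariate gave 11 in KAT2a knockout and a median of -0.062 with acetate. From the nearest TSS, the median summit shifts were -122, -89.7, -68.7 and 49 bp.

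The main fits did not pair samples by replicate number. The correlations of same-numbered deviations over 18 pairs took both signs and were largest for summits. They were -0.0618 to 0.0673 for fold percentile, -0.0920 to 0.0906 for pileup, -0.22 to 0.27 for width and -0.600 to 0.635 for summits. With the number as a replicate block, the fold percentile calls were 1 and 0 in the knockouts, the width calls 1 in KAT2a knockout and 1 with acetate, and the pileup call of acetate against CPT1a knockout 0, and no other count moved by over 1.5 times.

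Leaving out each library in turn gave these ranges in the same order. Fold percentile calls were 0 to 5, 0 to 2, 0 to 1 and 0 to 1, with medians of -11.4 to -3.47, -3.97 to -1.35, -3.08 to -0.85 and 0.75 to 5.41. Pileup calls were 32 to 42, 11 to 20, 19 to 32 and 0 to 2, with medians of -6.94 to -5.29, -4.73 to -3.68, -6.92 to -5.82 and 0.47 to 1.34. Width calls were 9 to 30, 1 to 7, 0 to 9 and 0 to 0, with medians of -0.54 to -0.28, -0.41 to -0.16, -0.43 to -0.19 and 0.02 to 0.24. Summit calls were 32 to 45, 26 to 36, 22 to 29 and 0 to 1, with medians of -251 to -211, -194 to -154, -161 to -128 and 41.2 to 64.0 bp. The fold percentile calls in CPT1a knockout were 0 without any 1 of the scramble libraries and 5 without CPT1a knockout replicate 2. Width calls were 7 in KAT2a knockout and 9 with acetate without scramble replicate 2 or CPT1a knockout replicate 3, and 0 with acetate without acetate replicate 1 or 3.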
